A study of Mus musculus with 7 samples.

Results

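The comparison set GFP-positive cells of the caudal part of the E9.5 embryo that lay outside a nephron progenitor gate against all GFP-positive cells of the whole E8.5 embryo. It used 2 of the 7 arrays of the study, 1 array for each sorted population, and every difference is given as E9.5 minus E8.5. All embryos were C57BL6J and carried an Osr1-GFP knock-in, in which green fluorescent protein (GFP) is made where the gene Osr1 is active, and whether 1 or both copies of Osr1 were altered is not given in the sources used here. At E9.5 the gate took cells positive for GFP and for Integrin alpha8 (Itga8) and negative for Pdgfr alpha (Pdgfra), and the cells described here were the remaining GFP-positive cells. The study asked how nephron progenitors differ from the mesenchyme around them, and the other 5 arrays were GFP-negative cells of E8.5 and E9.5, the gated cells of E9.5, and gated and other GFP-positive cells of the E11.5 metanephric mesenchyme. Stage, region of the embryo and gate all changed between the 2 arrays and cannot be told apart. There was no replicate, so no test between the populations could be run, and how many embryos made up a sample is not given in the sources used here.

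Osr1 encodes a zinc finger factor of the early intermediate mesoderm, the source of the kidney, and of the lateral plate mesoderm, the source of limb, body wall and heart mesenchyme. In embryos of these stages the body grows from its tail end, where progenitors held by Wnt and Fgf signals make new axial tissue, and the Hox genes are switched on in order along their clusters as the trunk and tail are laid down. An E8.5 embryo still includes the heart field and early blood vessel precursors in the tissue sorted, while the caudal part of an E9.5 embryo contains hindlimb field, nephric mesoderm, gut wall and tail.

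A level is the log2 processed signal of a probe minus the log2 75th percentile of that array, so 0 is the 75th percentile. Of 26755 genes on the array, 23135 were well above background on at least 1 of the 2 arrays. At least 4-fold higher levels in the E9.5 cells were found for 394 genes, 1.7% of those measured, and at least 4-fold lower levels for 193, or 0.834%. Where 1 side was not well above background, its reading was raised to a limit of that array if it lay below it, and was kept otherwise. The limit was the lowest level called well above background, -5.1 at E8.5 and -4.62 at E9.5. The fold is then called a bound and written with "at least". A true level above the one used would make the fold smaller, so it is not a strict lower bound. This was the case for 262 of the higher and 45 of the lower genes. Within an array, 399 probes spotted 10 times gave a median standard deviation of 0.122 at E8.5 and 0.125 at E9.5 in log2 units, which gives 0.17 for the difference of 2 spots, and this covers spot noise alone.

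The E9.5 array read higher at the dim end. Of its spots 84.07% were well above background against 70.33% at E8.5, and the median difference ran from 0.95 in the dimmest of 5 equal bins of genes to -0.14 in the brightest. With that trend removed by a loess curve, 137 genes passed 4-fold on the higher side and 375 on the lower side, and with quantile normalization 205 and 392, so which side held more genes turned with the scaling. Among genes well above background on both arrays 132 were higher and 148 lower. These alternatives shifted the median of all genes from 0.16 to -0.05 under loess, 0.01 under quantile normalization and 0.05 among genes well above background on both arrays. Background correction by normexp, with an offset of 50 that draws dim signals together, left 36 genes higher and 54 lower at 4-fold. Folds and bounds therefore hold for the processed signal as scaled here, and for many of the genes named the value under normexp (log2) is given beside the main one. Both arrays were on the same slide.

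**Figure D1:**
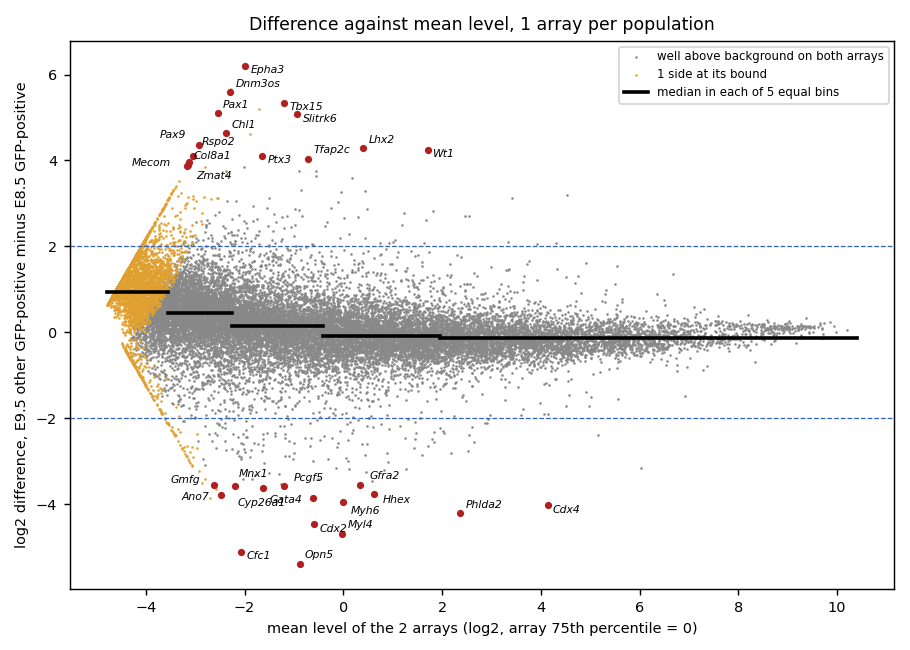
Log2 difference of each measured gene (vertical axis, E9.5 other GFP-positive minus E8.5 GFP-positive) against the mean level of the 2 arrays (horizontal axis, log2 with the 75th percentile of each array at 0). Grey points were well above background on both arrays, orange points on 1 array, dashed lines mark 4-fold, black bars give the median in each of 5 equal bins of genes (0.95 at the dim end, -0.14 at the bright end), and red points are the 15 named genes on each side.

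The genes on which cells were sorted were measured first. Osr1 had a level of 0.85 at E8.5 and -0.08 at E9.5, a difference of -0.93, and it was not well above background in GFP-negative cells of either stage. Itga8, the integrin subunit used for the gate, stood at -0.87 at E8.5, at 0.20 in the other E9.5 cells and at 2.15 in the gated cells. Pdgfra, the receptor that excluded cells from the gate, stood at 3.40 and 3.44, against -0.52 in the gated cells. The E9.5 cells therefore carried Osr1, were lower in Itga8 than the gated cells, and differed from the E8.5 cells in Pdgfra by 0.04, less than the spot noise of 0.17.

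The clearest block of lower genes was that of the tail bud, the growth zone at the end of the embryo. Of 20 listed genes, all measured, 14 were at least 2-fold lower, 11 of them at least 4-fold, and 0 were at least 2-fold higher, with a median difference of -2.22. The background over all measured genes was 3.41% lower and 15.4% higher at 2-fold. It was 6.49% and 3.92% under loess, and 1.37% and 1.29% with normexp. The counts of the lists below are to be set beside the shares of the same setting. The median was -2.17 with 13 lower under loess and -1.27 with normexp background correction, and the list stayed below 0 under each alternative. The summed level of the list was 7.73 at E8.5 and 5.89 at E9.5. A summed level is the log2 of the added signals of all members, so the brightest members weigh most in it.

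The 3 caudal-type homeobox genes Cdx1, Cdx2 and Cdx4, which promote posterior axis growth and Hox expression, were among the 4 lowest of this group, with Cyp26a1. Cdx2, read by a probe on chromosome 5 at 148112547 to 148112606 (mm9), had a level of 1.63 at E8.5 and -2.84 at E9.5, 22.2-fold lower. Cdx4, read on chromosome X at 100525392 to 100525451 (mm9), stood at 6.15 and 2.12, 16.3-fold lower, and Cdx1 at 2.32 and -1.15, 11.1-fold lower. In the gated E9.5 cells Cdx4 was at -2.03 and Cdx2 was not well above background, while GFP-negative E9.5 cells held Cdx4 at 3.73 and Cdx2 at -0.04. The E9.5 cells outside the gate thus lay between gated and GFP-negative cells for both genes.

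T, the T-box factor brachyury of the primitive streak and notochord, stood at -1.30 at E8.5 and was not well above background at E9.5, at least 9.39-fold lower. Wnt3a, a Wnt ligand of the tail bud, was at least 7.96-fold lower and also not well above background at E9.5, and with normexp the differences of T and Wnt3a were -1.14 and -1.06. Both were measured in GFP-negative cells, where T stood at -0.92 at E8.5 and -0.98 at E9.5 and Wnt3a at -1.22 and -1.46. Sp5, a zinc finger target of Wnt signalling, went from 1.44 to -1.72, 8.98-fold lower. Cyp26a1, the enzyme that clears retinoic acid from the tail end, went from 0.18 to -3.45, 12.4-fold lower, and stood at -0.25 and -0.03 in the GFP-negative cells of the 2 stages. Of the other posterior factors, Evx1 was 5.22-fold lower, the clock gene Hes7 5.57-fold lower and Msgn1, a factor of presomitic mesoderm, 4.14-fold lower.

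Not every listed gene was lower. The growth factor Fgf8 differed by -0.09, Fgf17 by -0.02 and Sp8 by -0.03, and Gdf11, a signal that marks the trunk-to-tail transition, was 0.81 higher. Lin28a, an RNA-binding protein of early development, went from 5.60 to 4.21, 2.62-fold lower. In GFP-negative cells, 0 of the measured tail bud genes were at least 2-fold higher and 4 at least 2-fold lower, with a median of -0.10, beside 8.86% higher and 6.24% lower over all genes measured there. In the gated E9.5 cells against the same E8.5 array, 0 were higher and 15 lower, with a median of -2.46, beside 12.7% and 6.87% of all genes measured, and that comparison shares its E8.5 array with the one described here.

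**Figure D2:**
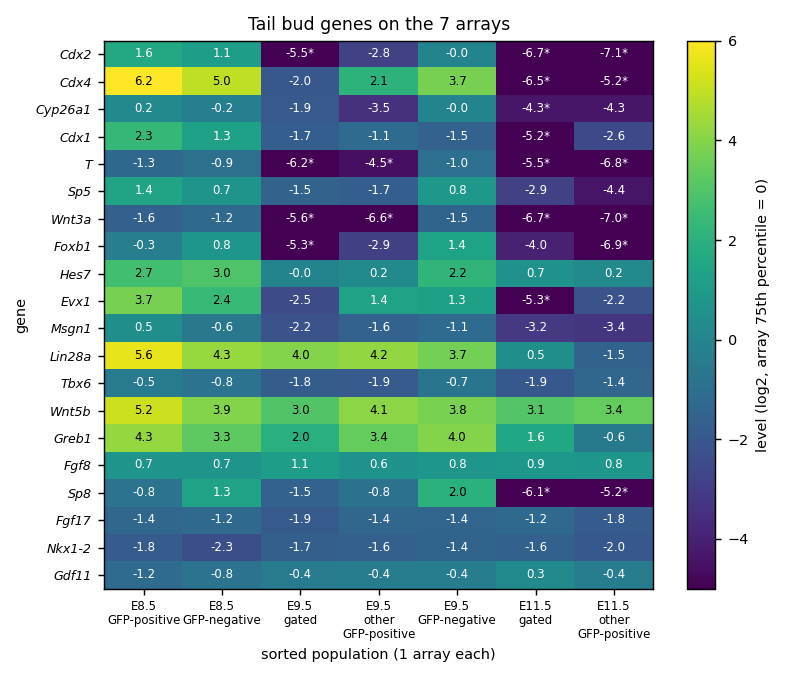
Levels of the 20 tail bud genes (rows, ordered by their difference) on the 7 arrays (columns, 1 array per population), coloured and printed as log2 with the 75th percentile of each array at 0, with an asterisk where the probe was not well above background. Cdx4 stands at 6.15 in E8.5 GFP-positive cells, 2.12 in the other E9.5 cells and 3.73 in E9.5 GFP-negative cells.

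Sequences before the start sites of 4 of the lower tail bud genes are shown because T-box, Cdx and Wnt-responsive TCF/LEF factors are known to act in the tail bud, and T and the Cdx genes are in the list. Each is the 250 bases upstream of a RefSeq transcript start in GRCm38.p6, 5′ to 3′ on the strand of the gene, with capitals marking matches on either strand to AGGTGT (T-box), CTTTGA (TCF/LEF, the factors of Wnt signalling) or TTTATG (Cdx). The windows are chr17:8434173-8434422, plus strand for T, chr2:70474673-70474922, plus strand for Sp5, chr12:11208949-11209198, minus strand for Msgn1 and chr19:37697558-37697807, plus strand for Cyp26a1.
T: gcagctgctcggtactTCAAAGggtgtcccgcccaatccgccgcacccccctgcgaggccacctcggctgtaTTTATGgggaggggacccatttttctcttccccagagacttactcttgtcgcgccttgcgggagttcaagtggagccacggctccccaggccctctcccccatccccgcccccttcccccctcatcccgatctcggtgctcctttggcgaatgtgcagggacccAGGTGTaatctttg
Sp5: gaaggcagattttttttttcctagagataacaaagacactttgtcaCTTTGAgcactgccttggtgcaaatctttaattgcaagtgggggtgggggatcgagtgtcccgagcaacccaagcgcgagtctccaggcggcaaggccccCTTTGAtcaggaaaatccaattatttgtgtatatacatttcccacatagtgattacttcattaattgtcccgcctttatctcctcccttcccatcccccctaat
Msgn1: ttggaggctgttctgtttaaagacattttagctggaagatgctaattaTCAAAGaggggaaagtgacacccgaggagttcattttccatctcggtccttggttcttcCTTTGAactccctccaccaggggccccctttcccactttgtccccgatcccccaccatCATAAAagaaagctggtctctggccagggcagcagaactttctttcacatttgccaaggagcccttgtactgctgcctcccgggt
Cyp26a1: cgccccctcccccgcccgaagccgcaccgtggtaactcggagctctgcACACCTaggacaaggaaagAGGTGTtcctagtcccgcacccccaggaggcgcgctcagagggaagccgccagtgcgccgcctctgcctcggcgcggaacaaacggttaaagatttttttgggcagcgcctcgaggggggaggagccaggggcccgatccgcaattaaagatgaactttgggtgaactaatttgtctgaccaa
T holds a match to each of the 3 motifs, Sp5 holds 2 TCF/LEF matches, Msgn1 holds 2 TCF/LEF matches and 1 Cdx match, and Cyp26a1 holds 2 T-box matches. All 4 windows shown hold matches, whereas the windows of Cdx2, Wnt3a and Tbx6, which were also lower, hold none of the 3 motifs. Of all 32851 promoter windows in the table, 11.8% hold the T-box letters, 13.8% the TCF/LEF letters and 10.8% the Cdx letters. Of 14 windows of 12 lower tail bud genes, 6 hold the T-box letters, 5 the TCF/LEF letters and 4 the Cdx letters. In 7 windows of 4 other tail bud genes the counts were 0, 1 and 1. A match is a description of these letters and not evidence of binding.

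Hox genes differed by their place in the cluster. Of the 12 genes of groups 1 to 4, 3 were at least 2-fold lower and 0 higher, with a median of -0.34, and of the 11 genes of groups 5 to 8, 2 were higher and 0 lower. Of 7 genes of groups 9 and 10, 3 were at least 2-fold higher, and of 7 measured of 9 in groups 11 to 13, 4 were, with medians of 0.92 and 1.45. With loess these medians were 1.07 and 1.60.

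Hoxd11, needed with Hoxa11 for kidney and forearm, stood at -1.22 at E8.5 and 2.08 at E9.5, 9.83-fold higher. Hoxd10 went from -2.33 to 0.52, Hoxd13 from -0.17 to 2.61 and Hoxc10 from 1.19 to 3.91, which is 7.21-fold, 6.89-fold and 6.55-fold higher. These HoxD genes of groups 10 to 13 lie next to each other at the posterior end of their cluster on chromosome 2. At the other end of the same cluster Hoxd1 went from 2.47 to 0.01, 5.48-fold lower. The late genes were not all higher, since Hoxc11 differed by -0.22, Hoxc12 by -0.10 and Hoxb9 by -0.56.

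In the gated E9.5 cells Hoxd11 stood at -1.19 and Hoxd13 at -1.46, below the cells outside the gate, whereas Hoxc10 stood at 4.33. In GFP-negative cells the E9.5 minus E8.5 medians were 1.31, 1.75, 2.66 and 1.63 for the same 4 groups of paralogs. There 10 of the 11 measured genes of groups 1 to 4 and 10 of the 11 of groups 5 to 8 were at least 2-fold higher, beside 0 of 12 and 2 of 11 in the GFP-positive cells, and the difference between the pairs was not tested.

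**Figure D3:**
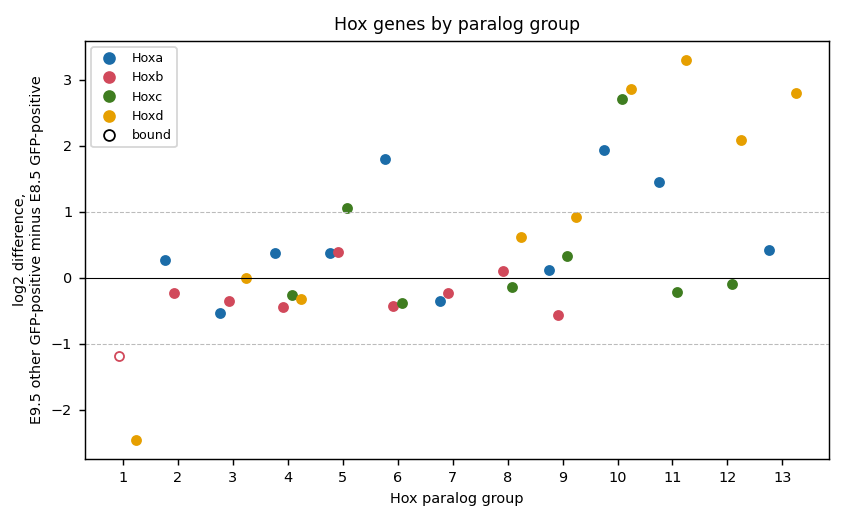
Log2 difference of the Hox genes reported (vertical axis, E9.5 other GFP-positive minus E8.5 GFP-positive) by paralog group (horizontal axis), coloured by cluster, with open circles for bounds and dashed lines at 2-fold. Hoxd1 lies at -2.45, and Hoxd10, Hoxd11 and Hoxd13 at 2.85, 3.30 and 2.79.

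Genes of the early heart were among the lowest. Myl4, an atrial myosin light chain, had a level of 2.32 at E8.5 and -2.37 at E9.5, 25.8-fold lower, and Tnnt2, cardiac troponin T, stood at 0.50 and -3.03, 11.6-fold lower. Gata4, a zinc finger factor of heart and endoderm, stood at 1.32 and -2.54, 14.4-fold lower. Myh6, a cardiac myosin heavy chain, was 15.4-fold lower by the probe shown and differed by 0.22 by its other probe, and the near-identical Myh7 differed by 0.29, so these paralogs are uncertain. Myl2 was 5.49-fold lower.

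The heart lists as a whole moved less than these genes. Of 23 measured sarcomere genes 6 were at least 2-fold lower and 2 at least 2-fold higher (Tnni3 and the dim Pln, which was lower under loess), with a median of -0.08 that was -0.47 under loess and 0.04 with the 75th percentile taken over probes well above background on all arrays. Of 18 heart factors 3 were lower, Gata4, Hand1 and Tbx20, and 2 were higher, Tbx5 and Isl1, which also mark limb field and second heart field. With normexp Tbx20, Tbx5 and Tnni3 lay within 2-fold, at -0.89, 0.91 and 0.57. Nkx2-5, the cardiac homeobox gene, was at -3.33 and -4.02, dim on both arrays.

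Factors that start blood vessel formation were lower. Of 26 endothelial genes, 15 were at least 2-fold lower and 2 at least 2-fold higher, with a median of -1.11 (-1.12 under loess). Sox7, a SoxF factor of vessel precursors, went from 1.70 to -1.47, and its relatives Sox18 and Sox17 were 8.45-fold and 7.34-fold lower. Etv2, which starts the endothelial programme, went from 1.87 to -0.99, 7.26-fold lower. Tal1 and Lmo2, partners in blood and vessel precursors, were 7.55-fold and 7.06-fold lower.

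The vessel receptors Flt4, Flt1 and Kdr were all lower. Flt4 was 6.95-fold and Flt1 5.37-fold lower, and Kdr, the main VEGF receptor, went from 2.44 to 1.38. The log2 difference of Kdr was -1.07 by the probe shown and -2.19 over the median of its probes. With normexp Sox18, Flt4 and Flt1 differed by -1.27, -1.87 and -1.28, under 4-fold, and 9 of the list were at least 2-fold lower and 1 higher. The junction genes Pecam1 and Cdh5 differed by -0.11 and -0.37, and Erg, an endothelial ETS factor, was 3.15-fold higher. The summed level of the list was 6.02 at E8.5 and 4.37 at E9.5, with 25 and 26 of the 26 genes well above background. In GFP-negative cells 12 of the measured genes were at least 2-fold lower and 0 higher, with a median of -0.91. In these sorted bulk samples, fewer cells of a type and less RNA per cell cannot be told apart.

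Some genes of yolk sac endoderm, a layer outside the embryo proper, were also lower. Of 23 measured yolk sac endoderm genes, 10 were at least 2-fold lower and 2 at least 2-fold higher, with a median of -0.96 (-1.02 under loess) and summed levels of 8.39 at E8.5 and 7.24 at E9.5. Cited1, a transcriptional cofactor also listed with nephron progenitors, went from 7.62 to 4.45, 8.95-fold lower. This bright gene made up most of the fall in the summed level, which therefore says little about the other members. The lipid carriers Apob and Apoa1 were 6.77-fold and 6.70-fold lower, and Lrp2, the endocytic receptor megalin, was 6.78-fold lower. Over the median of their probes the log2 differences of Apob and Lrp2, -2.76 each by the probes shown, were -0.91 and -1.21, and that of Apoa1 was -1.23 with normexp. With normexp 7 of the list were lower and 0 higher. The part of such cells in the other differences was not tested. In GFP-negative cells 15 of these genes were at least 2-fold lower and 1 higher.

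Of 25 gut endoderm genes, 7 were at least 2-fold lower (28%) and 4 higher (16%), beside 3.41% and 15.4% over all measured genes. Hhex, a homeobox factor of foregut and vessel precursors, went from 2.49 to -1.26, 13.5-fold lower, and Spink1 was also lower, with a difference of -3.17. The list shares Cdx2, Gata4 and Sox17 with the lists above. The 4 higher genes were Shh, Ihh and the dim Cdh1 and Foxa3, with Shh going from -2.49 to -0.82, and with normexp they differed by 0.91, 0.85, 0.36 and 0.54, while Epcam, an epithelial surface protein, differed by -0.08.

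Several of the lowest genes belong to no list. Opn5, an opsin, had a level of 1.80 in E8.5 GFP-positive cells and -3.58 in the other E9.5 cells, 41.8-fold lower, and lay between -5.56 and -3.82 on the other 5 arrays. Cfc1, the cripto-family coreceptor of Nodal in left-right patterning, stood at 0.49 at E8.5 and was not well above background at E9.5, at least 34.7-fold lower. Pcgf5, a Polycomb ring finger protein, was 12.02-fold lower by the probe shown and differed by -3.56 by its other probe. Mnx1, a homeobox factor of notochord and pancreas, was 11.9-fold lower, and Ano7 and Gmfg were 13.8-fold and 11.7-fold lower, with Gmfg at -0.66 by its other probe. With normexp the log2 differences of Mnx1, Ano7 and Gmfg were -1.82, -1.78 and -1.56, all under 4-fold, and that of Cfc1 was -2.66.

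Phlda2, an imprinted gene that limits placental growth, went from 4.47 to 0.26, 18.5-fold lower, and in GFP-negative cells from 3.34 to -1.62. Gfra2, a receptor for the ligand neurturin, went from 2.12 to -1.43, 11.7-fold lower. All of these are shown on the map of the 30 named genes.

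**Figure D4:**
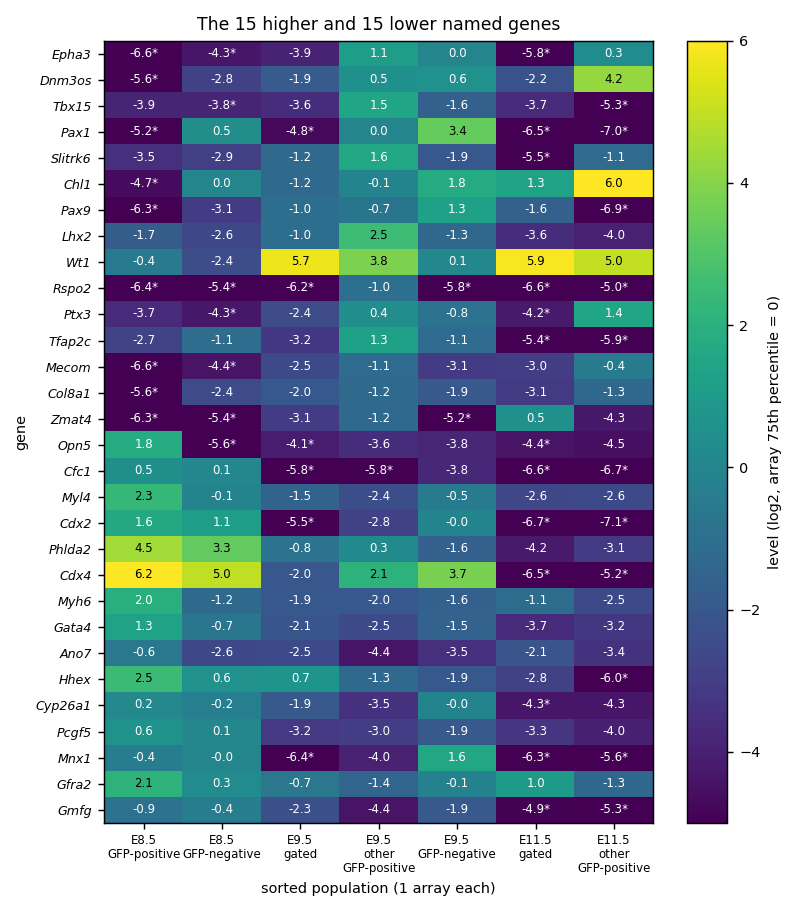
Levels of the 30 named genes, 15 higher and 15 lower (rows, higher genes first), on the 7 arrays (columns, 1 array per population), as log2 with the 75th percentile of each array at 0 and an asterisk where the probe was not well above background. Opn5 is at 1.80 in E8.5 GFP-positive cells and no higher than -3.58 elsewhere, and Tbx15 is at 1.46 in the other E9.5 cells and no higher than -1.64 elsewhere.

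Some Notch pathway genes were lower. Of 21 measured genes, 7 were at least 2-fold lower, 14 lay within 2-fold and 0 were higher, with a median of -0.15 (-0.57 under loess). Nrarp, a feedback inhibitor of Notch, went from 1.36 to -1.16 and Lfng, a glycosyltransferase that tunes Notch receptors, from 1.01 to -1.45. Dll1, a Notch ligand of somite precursors, went from 1.57 to -0.62, 4.57-fold lower, and the target Hes5 from 3.95 to 1.92. In GFP-negative cells, 9 of these genes were at least 2-fold higher at E9.5 and 0 lower, with a median of 0.76, and Hes5, Lfng and Nrarp lay past 2-fold on opposite sides in the 2 pairs. The receptors Notch1, Notch2 and Notch3 differed by -0.50, -0.09 and 0.74.

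Somite genes lay on both sides. At 2-fold, 6 of the 25 measured were higher and 3 lower, with a median of -0.03. These are 24% and 12%, beside 15.4% and 3.41% over all measured genes. Pax1 and Pax9, paired box factors of the sclerotome, the part of the somite that makes vertebrae, were at least 34.4-fold and at least 20.6-fold higher. With normexp their log2 differences were 2.17 and 1.62, the second under 4-fold. Pax1 was not well above background at E8.5 and stood at 0.01 at E9.5, and in GFP-negative cells it stood at 0.45 and 3.42. Lfng, Dll1 and Dll3 were the 3 lower genes.

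Epha3, Dnm3os and Tbx15 had the 3 largest differences of the named genes on the higher side. Epha3, an ephrin receptor with a probe on chromosome 16 at 63545155 to 63545214 (mm9), was not well above background at E8.5 and stood at 1.11 at E9.5, at least 73.9-fold higher, with a log2 difference of 6.21 that was 5.30 under loess and 3.24 with normexp. It stood at -3.94 in the gated cells, 0.02 in E9.5 GFP-negative cells and 0.35 in other GFP-positive cells of E11.5. Tbx15, a T-box factor of limb and body wall mesenchyme, went from -3.87 to 1.46, 40.4-fold higher, and was at -1.64 or lower on the other 5 arrays. Slitrk6, a transmembrane protein of the Slitrk family, went from -3.47 to 1.60, 33.7-fold higher.

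Dnm3os, the noncoding transcript that carries miR-199a and miR-214, was at least 48.4-fold higher by the probe on chromosome 1 at 164148400 to 164148459 (mm9), and by 1.60 and 4.14 on the log2 scale by its other probes, and its difference of 5.60 was 2.53 with normexp. It was not well above background at E8.5, stood at 0.50 at E9.5 and reached 4.24 in other GFP-positive cells of E11.5. The array measured this transcript and not the microRNAs. Their mature sequences from RefSeq, GRCm38.p6, are shown with the seed, bases 2 to 8, in capitals, because they are the known products of the transcript.
miR-199a-5p: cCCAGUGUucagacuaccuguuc
miR-199a-3p: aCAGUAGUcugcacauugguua
miR-214-5p: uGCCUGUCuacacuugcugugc
miR-214-3p: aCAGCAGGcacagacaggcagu
The 4 seeds differ from each other, so these microRNAs fall into 4 seed groups.

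Mesenchyme and stroma genes included several large differences. Of 28 measured members 8 were at least 2-fold higher and 2 lower, with a median of 0.78 (0.64 under loess, with 10 higher and 1 lower), and the summed level went from 7.46 to 8.26. Cxcl12, a chemokine of embryonic stroma, went from 2.94 to 6.13, 9.14-fold higher, and Ebf3, an early B-cell factor family member of loose mesenchyme, from -2.33 to -0.20. Postn, a matrix protein of mesenchyme, was not well above background at E8.5 and at least 10.65-fold higher, though 0.97 log2 units higher with normexp. Thy1 and Zeb2 were the 2 lower members, with differences of -1.40 and -1.10, and Zeb2 was at -0.71 over the median of its probes.

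Matrix genes lay on both sides. At 2-fold, 11 of the 40 measured were higher and 6 lower, or 27.5% and 15%, beside 15.4% and 3.41% over all measured genes. The fibrillar collagen gene Col3a1 went from 1.10 to 3.82, 6.56-fold higher, and Fbln5 and Col11a1 were bounds on the higher side, with 3.17 and 2.88, which were 1.04 and 0.72 with normexp. The laminin gene Lama4, the hyaluronan genes Hapln1 and Has2 and the elastin gene Eln had the lowest differences, -1.89, -1.61, -1.57 and -1.53, and Eln was at -0.63 with normexp. The median of the list was 0.30 and was 0.06 among genes well above background on both arrays.

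Limb and body wall genes also lay on both sides, 8 at least 2-fold higher and 5 lower of 29. These are 27.59% and 17.24%, beside 15.4% and 3.41% over all measured genes. Lhx9, a LIM homeobox factor of limb and gonad, went from -2.89 to -0.69, and Tbx5, the forelimb and heart T-box factor, from -0.97 to 0.30. Tbx4, the hindlimb T-box factor, went from 3.23 to 1.97, 2.39-fold lower, and Hand1 from 2.46 to 1.20, 2.40-fold lower. Foxf1, a forkhead factor of the gut wall mesoderm, went from -0.52 to -3.10, 5.99-fold lower. In the gated cells Tbx4 stood at -1.66 and Hand1 at -0.80, both below the cells outside the gate.

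In the cranial and pharyngeal list 7 of 22 passed 2-fold on the higher side and 2 on the lower side, with a median of 0.47 (0.20 under loess). Over all measured genes the shares were 15.4% and 3.41%. With normexp 2 of the list were higher and 1 lower, beside 1.29% and 1.37% over all measured genes. The highest of the list was Lhx2, a LIM homeobox factor, which went from -1.74 to 2.55, 19.6-fold higher. Rspo2, a secreted booster of Wnt signalling in limb buds, was at least 17.3-fold higher and was not well above background on any other array, but its log2 difference of 4.11 was 3.05 under loess and 1.38, under 4-fold, with normexp. Other genes of the largest 15 were Chl1, a neural cell adhesion molecule, at least 24.8-fold higher by the probe shown and 0.68 higher by its other probe, the pattern recognition gene Ptx3 (17.2-fold), Tfap2c (16.4-fold), the zinc finger gene Mecom (at least 15.6-fold, 0.90 by its other probe), Col8a1 (at least 14.97-fold) and Zmat4 (at least 14.6-fold). With normexp the log2 differences of Mecom, Col8a1 and Zmat4 were 1.41, 1.33 and 1.19, all under 4-fold, and that of Chl1 was 2.04.

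The median of the kidney lineage genes lay close to that of all measured genes. At 2-fold, 9 of 32 were higher and 2 lower, or 28.12% and 6.25%, beside 15.4% and 3.41% over all measured genes. The list median of 0.30 was 0.14 above that of all genes. Under loess it was -0.01, 0.04 above that of all genes, and 6 were higher and 3 lower. With normexp 2 were higher and 2 lower, beside 1.29% and 1.37% of all genes. Wt1, the zinc finger factor of nephron progenitors, gonad and mesothelium, had the highest difference of the list. It went from -0.41 to 3.83, 18.9-fold higher, by a probe on chromosome 2 at 105013656 to 105013715 (mm9). In the gated cells Wt1 stood at 5.73. Rspo1, a Wnt booster of gonad and nephron progenitors, went from 0.18 to 2.05, and Osr2, the close relative of Osr1, was at least 4.76-fold higher but dim on every array, at -1.51 in the gated cells, and its difference was 0.60 with normexp.

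Other nephron progenitor factors were lower outside the gate than in it. Six2, which keeps nephron progenitors uncommitted, stood at -2.63 in the other E9.5 cells against 1.16 in the gated cells, and Pax2 at -0.97 against 2.32. Against E8.5 the 2 genes differed by 1.34 and 0.10, and Six2 by 0.77 under loess and 0.37 with normexp. In the gated cells 16 of the list were at least 2-fold higher than at E8.5 and 3 lower, with a median of 1.17, on the same E8.5 array. Of 9 measured gonad genes 4 were at least 2-fold higher, among them Wt1 and Lhx9, and Gata4 was lower. These are 44.44% and 11.11%, beside 15.4% and 3.41% over all measured genes. Under loess and with normexp 2 were higher and 1 lower, and Nr0b1, 1 of the 4, was at -0.5 under loess.

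**Figure D5:**
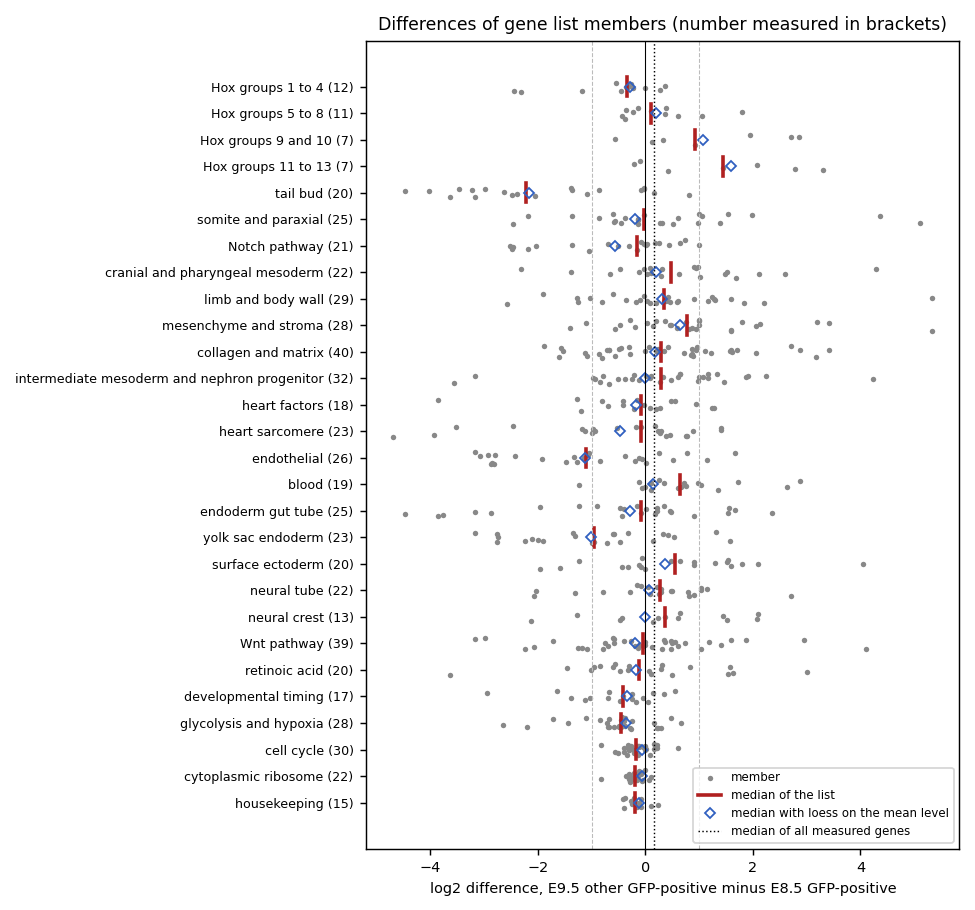
Log2 differences (horizontal axis, E9.5 other GFP-positive minus E8.5 GFP-positive) of the measured members of 28 gene lists (rows, number measured in brackets), with grey points for members, red bars for list medians, blue diamonds for medians under loess and a dotted line at the median of all genes (0.16). Tail bud has the lowest median (-2.22) and Hox groups 11 to 13 the highest (1.45) of the lists drawn.

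Signalling genes were examined by pathway. Over all measured genes the 2-fold shares were 15.4% higher and 3.41% lower. In the retinoic acid list, 4 of 20 were at least 2-fold higher and 3 lower: Aldh1a3, an enzyme that makes retinoic acid, was at least 7.98-fold higher, the clearing enzyme Cyp26b1 was 2.99-fold higher and the receptor Rarb went from 0.78 to 2.41, while Cyp26a1 was lower as given above. Over the median of its probes Rarb differed by 0.06, and with normexp Aldh1a3 was under 4-fold. In the Wnt list 7 of 39 were higher (17.95%) and 8 lower (20.51%), with Rspo2 and Rspo1 above and Rspo3, at 2.49 and 0.41, 4.24-fold below. In the Bmp and Tgf-beta list 4 of 42 were higher (9.52%) and 5 lower (11.9%), and the ligand Bmp2 went from 2.64 to 0.30, 5.05-fold lower.

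In the Fgf list 5 of 31 were higher (16.13%) and 2 lower (6.45%) at 2-fold, beside 15.4% and 3.41% over all measured genes. The higher share was thus near that of all genes, and under loess 2 were higher and 4 lower. Fgf5 went from -2.52 to 0.79, 9.92-fold higher. In the hedgehog list 6 of 17 were higher (35.29%) and 1 lower (5.88%). Under loess 4 were higher and 1 lower, and with normexp 2 and 1. Of the 6 higher, Dhh was at -0.59 under loess and Gas1 at -0.01 over the median of its probes. The ligand Shh was 3.18-fold higher, its receptor Ptch1 at -0.70 and its target Gli1 at -0.36 on the difference scale. Over the median of its probes Gli1 was at 0.19. In the Igf and imprinted list 5 of 26 were higher (19.23%) and 2 lower (7.69%), Phlda2 the lowest. Smooth muscle genes included Myl9, a smooth muscle myosin light chain, 4.55-fold higher, and Rgs5, a pericyte signalling regulator, 6.07-fold lower. Of 16 measured, 4 were higher (25%) and 1 lower (6.25%), and under loess and with normexp 2 were higher and 1 lower. Of the 4 higher, Abcc9 and Kcnj8 were at -0.38 and -0.49 under loess.

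Genes of other cell types were measured in both populations, and the 2-fold shares over all measured genes were 15.4% higher and 3.41% lower. Surface ectoderm genes were at least 2-fold higher for 7 of 20 and lower for 3, with a median of 0.56 that was 0.37 under loess and 0.00 among genes well above background on both arrays, and summed levels of 6.97 and 6.64. Tfap2c was the highest, and the keratin gene Krt8 went from 3.21 to 1.26. Neural tube genes were higher for 4 of 22 and lower for 3, with a summed level of 5.15 at E8.5 and 4.62 at E9.5, against 19 higher and 0 lower in GFP-negative cells. Neural crest genes were higher for 4 of 13 and lower for 2, with Sox9 going from -0.29 to 1.78 and Ednrb from 0.38 to -1.74.

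Blood genes were at least 2-fold higher for 5 of 19 and lower for 1, with a median of 0.65 (0.15 under loess) and summed levels of 9.04 and 9.16. That sum ran from 8.93 to 9.16 over all GFP-positive arrays, while the median level of the list was -1.83 at E8.5 and -1.60 at E9.5. A few bright probes therefore set the sum, and it does not measure blood content. Embryonic globin Hbb-y went from -0.96 to 1.92, 7.34-fold higher, while Hbb-bh1 stood at 2.32 and 2.27. In GFP-negative cells the same 2 genes were at 8.76 and 10.2 at E8.5 and at 8.74 and 9.15 at E9.5. The near-identical Hba-a1 and Hba-a2 differed by 1.03 and 1.73 and are uncertain. The part of any of these cell types in the differences above was not tested.

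Genes of cell growth differed little. Of 30 cell cycle genes 0 differed by at least 2-fold, with a median of -0.17, and the same held for 22 ribosomal protein genes (-0.19) and 15 housekeeping genes (-0.19). Of 28 glycolysis and hypoxia genes 5 were at least 2-fold lower and 0 higher, with a median of -0.46. Among them Aldoc, a brain-type aldolase, went from 3.03 to 0.38, and the glucose transporters Slc2a3 and Slc2a1 were 4.58-fold and 3.30-fold lower. Of 17 developmental timing genes 5 were lower and 0 higher, with Dnmt3b, a DNA methyltransferase, going from 4.81 to 3.16 and L1td1 7.75-fold lower, or -1.26 with normexp.

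Immediate early genes, which respond within minutes to handling and signals, were at least 2-fold higher for 4 of 23 and lower for 2. These are 17.39% and 8.7%, beside 15.4% and 3.41% over all measured genes, so the higher share was near that of all genes. With normexp 3 were higher and 1 lower. Egr1 went from 0.36 to 2.99, 6.17-fold higher, and Fos from -1.57 to 0.24, 3.50-fold higher. In GFP-negative cells Egr1 stood at 3.11 and 2.62. Of 24 germ cell and pluripotency genes 2 were higher and 7 lower, and Pou5f1, the pluripotency factor Oct4, differed by -0.18.

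GFP-negative cells of the same stages gave a stage difference on 2 further arrays that lay on different slides. There 320 of 20529 genes, 1.56%, lay at least 4-fold above E8.5, and 334, or 1.63%, at least 4-fold below. Of the 20009 genes measured in both pairs, 41 were at least 4-fold higher in both, 14.09% of the 291 higher in GFP-positive cells and 13.44% of the 305 higher in GFP-negative cells, and 35 were at least 4-fold lower in both, 20.47% of the 171 and 11.99% of the 292. Over all genes measured in both, 1.52% were at least 4-fold higher in GFP-negative cells and 1.46% lower. Cfc1, Phlda2, Hhex and Tal1 were lower, and Epha3, Dnm3os and Pax9 higher, by at least 4-fold in both pairs. In the GFP-negative cells Myl4 differed by -0.38, Tfap2c by -0.07 and T by -0.06. Opn5 was dim there, at -5.56 and not well above background at E8.5 and at -3.82 at E9.5. The E8.5 limit of -3.46 lay above both readings, so no direction is given for Opn5.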

How the data were processed

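Total RNA from sorted cells, 10 ng per array per the labels, was amplified, labelled with Cy3 and hybridised to 1 array per population. The authors extracted each spot's processed intensity, background-subtracted per the file headers, and the software, per the submitters' processing notes, was Agilent Feature Extraction, version 10.7.3.1. The deposited value table holds the same intensity. Control and outlier-marked spots were left out, and repeat spots were averaged. A gene was shown by its probe with the highest mean level. Probes were named through a RefSeq table (26425 of 55681) or the array files. Their coordinates are mm9, and exon or UTR annotation was not used here. Named genes were the 15 with the largest differences per side past 4-fold, if no other probe opposed them by over 1 log2 unit (clone, predicted and lincRNA names left out), plus up to 4 members per list and side past 2-fold. Other genes were chosen after their values were seen, and members and 36 lists with earlier results of these data known. Python 3.11.15, statsmodels 0.14.6 and limma 3.58.1 were used, and the comparison step was tested on simulated data. The number of arrays limits the precision. Results of a few genes are not reported here. Alternatives covered scaling, background, filter, probe choice and threshold.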

Additional observations from a re-analysis of the deposited data

Results flagged for a closer look

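In 7 of the genes reported, the E9.5 minus E8.5 difference lay past 2-fold on opposite sides in the GFP-positive cells described here and in GFP-negative cells, which had 1 array a side, so the difference between the pairs was not tested. The values given are for GFP-positive and then GFP-negative cells. Lower in the first and higher in the second were Ednrb, the endothelin receptor of neural crest, at -2.12 and 1.63, Hes5 at -2.03 and 2.99, and Hoxd1 at -2.45 and 1.30. So were Lfng at -2.46 and 1.58, Mnx1 at -3.57 and 1.56, and Nrarp at -2.51 and 1.48. On the other side was Nfe2, an erythroid leucine zipper factor, at 2.63 and -3.49. Its GFP-positive value was a bound set at the dim end and was 0.65 with normexp.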

How the results depend on the processing

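The counts of genes at least 4-fold higher and lower, 394 and 193, became 205 and 392 under quantile normalization, 137 and 375 under loess on the mean level, and 36 and 54 with normexp background correction. The higher count was 132 among genes well above background on both arrays and 1363 with no filter and no bound. At thresholds of 2-fold and 8-fold the counts were 3554 and 790, and 63 and 42. Loess among genes well above background on both arrays, an alternative chosen after seeing the data, gave 89 and 195. The median difference of all genes, 0.16, was -0.05 under loess and -0.03 under loess among genes well above background on both arrays. The 30 named genes kept their side under each alternative that measured them, 71 of 260 values differing from the reported one by more than the spot noise of 0.17. They were chosen for their large differences on the same 2 arrays, so keeping their side is no independent support. Of 242 listed or named genes past 2-fold, 13 changed sign under at least 1 alternative: Abcc9, Col12a1, Dct, Dhh, Dlx1, Fgf3, Gas1, Gfra1, Kcnj8, Nr0b1, Pln, Runx1 and Wif1. Of 36 list medians 9 changed sign: the gut endoderm, germ cell, heart factor, heart sarcomere, intermediate mesoderm, somite, Wnt, Bmp and Fgf lists. No paired analysis was possible because each population had 1 array, and leaving out a replicate was not possible for the same reason. Genes near background are limited by signal over background, with a median spot standard deviation of 0.372 below a level of -2 at E8.5 against 0.066 above 0.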

Other observations

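These genes were chosen after their values were seen. Plac1, a placenta-enriched secreted protein, differed by -2.67 in GFP-positive cells and was 6.38-fold lower, and it differed by -3.15 in GFP-negative cells. Rhox5, a homeobox gene of extraembryonic tissues, differed by -2.11 in GFP-positive and -3.69 in GFP-negative cells. Mixl1, a homeobox factor of the primitive streak, was at least 8.53-fold lower in GFP-positive cells and 1.15 higher in GFP-negative cells.

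The probes of Nanog, a pluripotency factor with near-identical pseudogene copies, and of Eya1, a transcriptional cofactor of nephron progenitors, were bright and nearly flat over the 7 arrays. Nanog ran from 9.05 to 9.73 and Eya1 from 8.65 to 9.01.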
